A study of Mus musculus with 10 samples.

Results

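NIC-Prmt1 mammary epithelial cells were compared with NIC mammary epithelial cells, 3 libraries against 2, across every gene with a deposited value of at least 10 in at least 2 of the series' 10 libraries. That rule kept 15694 of the 16290 genes of the table. NIC and NIC-Prmt1 are genotypes of FVB mice, and the labels do not spell out NIC. The study's title names transgenic overexpression of arginine methyltransferases in mammary tumorigenesis, so the comparison asks what a Prmt1 transgene adds to cells that carry NIC in both groups. The same series holds 3 NIC-Carm1 and 2 NIC-Prmt6 libraries, which entered the fit and served as a further reference. Cells came from the #3 and #4 mammary glands, were freed with enzymes and enriched by pulsed centrifugation. RNA was extracted with Trizol, treated with DNase I, selected for poly-A and sequenced. The promoter and copy number of the transgenes, the age and sex of the mice, whether tumours or whole glands were taken, and whether each library came from its own animal were not stated in the labels. The p-values therefore measure the spread between these libraries, which may be partly technical.

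PRMT1 transfers methyl groups from S-adenosylmethionine to arginine side chains and makes most of the asymmetric dimethylarginine of mammalian cells. Its substrates include histone H4 and many RNA-binding proteins, and it acts with nuclear receptors and other transcription factors as a coactivator. CARM1, also called PRMT4, is another coactivator of the family, and PRMT6 modifies histone H3. The mammary epithelium itself has an inner luminal layer and an outer basal layer of contractile myoepithelial cells, and lies in a stroma of fibroblasts, vessels and immune cells.

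A deposited value is a read count divided by the size factor of its library. The 5 libraries held 21589274 to 29235457 reads, recovered from the deposited values. On the first principal component of the 5 libraries, with 60.5% of the variance, the NIC libraries sat at -54.5 and -54.0 and NIC-Prmt1 replicates 1, 2 and 3 at 71.0, 2.0 and 35.5. Between libraries of a group, the chi-square per degree of freedom of their reads was 33.0 for the NIC pair and 28.0, 47.8 and 58.1 for the NIC-Prmt1 pairs, the lowest between replicates 2 and 3. NIC-Prmt1 replicate 1 carried skin genes. The summed level of 24 keratinocyte and hair follicle markers was 48.9 and 29.4 CPM (reads scaled to a common total per library) in NIC and 1613, 24.7 and 151 in NIC-Prmt1. Outside the comparison, NIC-Carm1 replicates 2 and 3 and NIC-Prmt6 replicates 1 and 2 were nearly identical, with a chi-square per degree of freedom of 2.69 and 2.44 between them, where the other pairs within a group lay between 28.0 and 105. They were fitted as separate libraries and, as an alternative, averaged. Unless stated, calls and adjusted p values against NIC and against the NIC-Carm1 and NIC-Prmt6 groups treat them as separate. All 10 libraries share 1 estimate of the spread, so these pairs also enter the adjusted p values against NIC. With each such pair averaged, the genes called against NIC went from 4645 to 2601. Against the NIC-Carm1 and NIC-Prmt6 groups, 1 gene of all those tested was then higher and 1 was lower.

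Prmt1, the gene of the transgene, did not pass the test. It had deposited values of 2675 and 3077 in NIC and 2963, 2702 and 3258 in NIC-Prmt1 (log2 fold change 0.05 ± 0.12, adjusted p = 0.784), and the groups overlapped. Here and below, the log2 fold change is NIC-Prmt1 minus NIC on the log2(value + 1) scale, given ± its standard error, and the adjusted p is limma's with Benjamini-Hochberg adjustment over all tested genes. The gene lies at chr7:44975989-44986568 on the minus strand of GRCm38, per GENCODE M21. The labels do not say whether reads from the transgene were counted in that row, so the value does not check the labels. Among 13 tested methyltransferases and partner proteins, 1 rose and 2 fell, where 15.2% of all tested genes rose and 14.4% fell. Carm1 rose from 1556 and 1567 to 2303, 2025 and 2136 (0.46 ± 0.09, adjusted p = 0.00639). Wdr77, the partner subunit of PRMT5, fell from 1509 and 1474 to 1041, 1043 and 1009.7 (-0.53 ± 0.10, adjusted p = 0.00483). Riok1, an adaptor that brings substrates to PRMT5, had a log2 fold change of -0.50 ± 0.11 with an adjusted p of 0.00952, which became 0.0662 without NIC replicate 1. Prmt5 itself was at 1205 and 1349.6 in NIC and 1106, 1188 and 1159.5 in NIC-Prmt1 (adjusted p = 0.26). Prmt6 was at 387 and 451 in NIC and 351, 272 and 355 in NIC-Prmt1 (adjusted p = 0.159), and its groups did not overlap.

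Across all genes the difference was broad and close to balanced. At an adjusted p under 0.05, 2387 genes (15.2% of those tested) were higher in NIC-Prmt1 and 2258 (14.4%) were lower, and the median log2 fold change over all tested genes was -0.0037. At least a 2-fold change was reached by 891 of the higher genes (5.68%) and 529 of the lower ones (3.37%). Values of the 2 groups did not overlap for 4430 genes above NIC (28.2%) and 4246 below it (27.1%). The number of calls rested on the spread shared by all 10 libraries: 1424 genes were higher and 1177 lower with the nearly identical libraries averaged, and 1556 and 1219 with the 5 libraries alone. In all 3 of these fits 1316 genes were higher (8.39%) and 1087 lower (6.93%). Leaving out NIC replicate 1 gave 1370 higher and 1215 lower genes, and leaving out NIC replicate 2 gave 1238 and 1039, where a single NIC library was left, taken to vary as the others do. For each gene described below as risen or fallen with its values by library, the 2 groups did not overlap. Many lists are also given by how many of their members kept their call in every one of 22 alternative fits. These include both fits without a NIC library. An alternative that gave a gene no adjusted p was not counted against it. Every list count, except that of skin genes, is to be read against the 15.2% of all genes that rose and the 14.4% that fell. Some genes stand in several lists, such as Cxcl2, Kdr, Notch3 and Prom1, so the lists are not separate results.

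**Figure D1:**
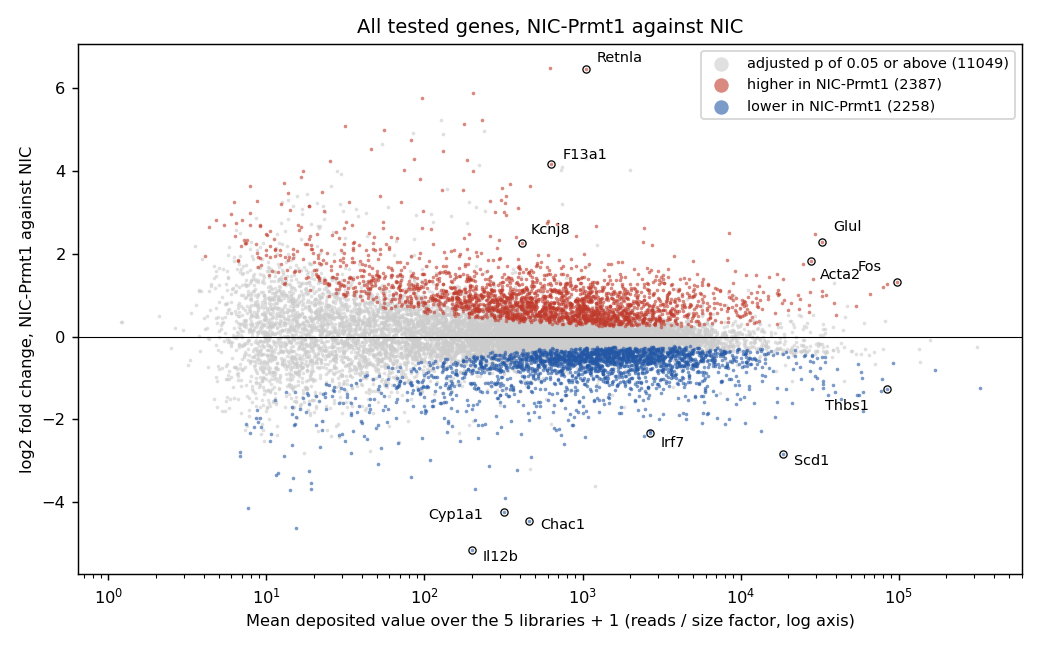
Each point is 1 of the 15694 tested genes, with the mean deposited value over the 5 libraries on a log axis and the log2 fold change of NIC-Prmt1 against NIC on the other. Red genes (2387) were higher and blue genes (2258) lower at an adjusted p under 0.05, and circled genes are named in the text.

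The genes with the largest falls were of several kinds. Il12b, a subunit of interleukins 12 and 23, fell from 429 and 525 in NIC to 9.55, 20.7 and 9.30 in NIC-Prmt1 (-5.16 ± 0.74, adjusted p = 0.00159). Chac1, an enzyme that degrades glutathione, fell from 1103 and 1045 to 64.7, 37.3 and 44.4 (-4.47 ± 0.30). Cyp1a1, a monooxygenase induced through the aryl hydrocarbon receptor, fell from 838 and 616 to 82.7, 26.9 and 22.7 (-4.24 ± 0.55). All 3 were far below the NIC values in every NIC-Prmt1 library. The remaining 9 of the 12 largest falls were A2m (alpha-2-macroglobulin, -3.69), Clec4e (-3.40), a receptor of activated myeloid cells, Apol9a (-3.22) and Apol9b (-3.13), Il10 (-2.99), Il1rn (-2.92), Scd1 (-2.85), the amino acid transporter gene Slc6a14 (-2.60) and the cadherin gene Cdh17 (-2.56). Apol9a and Apol9b are near-identical copies, so their separate values are uncertain. The calls of A2m and Slc6a14 were lost without NIC replicate 1 (adjusted p = 0.0625 and 0.064), and that of Slc6a14 also without NIC replicate 2 (adjusted p = 0.0919).

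Of the 12 largest rises, 6 were markers of tissue-resident and alternatively activated macrophages. Retnla, one of them, had the largest rise of the 12, from 20.8 and 14.3 to 974, 2582 and 1638 (6.46 ± 0.71, adjusted p = 0.000548). Cd209d (4.29), Cd163 (4.26), F13a1 (4.16), Fcna (3.99) and Mgl2 (3.55) are further macrophage genes, and Mcpt4 (3.64) and Cma1 (3.60) encode proteases of mast cells. Mmp9, which encodes gelatinase B, rose from 26.5 and 2.60 to 89.1, 211 and 136. Ctsr, a cathepsin gene, rose from 9.45 and 113 to 885, 191 and 528. Ctsr's NIC values differed widely between the libraries, and its adjusted p was 0.0707 without NIC replicate 1. Dsc1, a skin desmocollin gene, had no reads in either NIC library and values of 432, 8.29 and 38.2 in NIC-Prmt1. Against a floor of 3 reads per library its mean was at least 47.3-fold higher. Mt4, a metallothionein gene of stratified epithelium with 251, 8.29 and 12.4, was at least 26.9-fold higher by its mean. The lowest NIC-Prmt1 library of each was 2.46-fold above that floor. Both genes passed the value filter only through NIC-Prmt1 libraries, so a rise was the only call open to them. Both rested on NIC-Prmt1 replicate 1 for most of their level, and neither call held without NIC replicate 1 (adjusted p = 0.0501 and 0.0706) or without NIC replicate 2 (adjusted p = 0.0539 and 0.0761).

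Ranked by the difference in level, 6 abundant transcripts led the falls. Thbs1, which encodes thrombospondin 1, an inhibitor of vessel growth, fell from 138689.5 and 118751 to 61743, 47977 and 52159 (-1.26 ± 0.24, adjusted p = 0.00481). Plet1, an epithelial surface protein gene, fell from 111407 and 92026 to 16406, 37542 and 39422 (-1.81 ± 0.33). The others were Csn3 (kappa-casein, -1.32), the heat shock genes Hspa1b (-1.01) and Hsp90aa1 (-1.33), and the aldolase gene Aldoa (-1.42). Among the 6 that led the rises, Fos, a subunit of the AP-1 transcription factor, went from 53398 and 49934 to 126439, 123071 and 136229 (1.31 ± 0.22). Glul, which encodes glutamine synthetase, rose from 6565 and 14232 to 56499, 42586 and 44023 (2.29 ± 0.26, adjusted p = 0.000666). Gpx3, the secreted glutathione peroxidase, rose from 3452 and 15614 to 61478, 33592 and 33629 (2.48 ± 0.60, adjusted p = 0.0136), with NIC replicate 1 well under NIC replicate 2. The remaining 3 were the immediate early genes Fosb (1.19) and Egr1 (1.02) and Zfp36 (1.27), whose product destabilises cytokine mRNAs. Every NIC-Prmt1 library lay beyond both NIC libraries for these 12 genes. Hspa1b is a near copy of Hspa1a, so its own value is uncertain. Leaving out NIC replicate 1 ended the calls of Hspa1b (adjusted p = 0.059) and Gpx3 (0.105), and leaving out NIC replicate 2 those of Aldoa (0.0523) and Egr1 (0.0794).

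**Figure D2:**
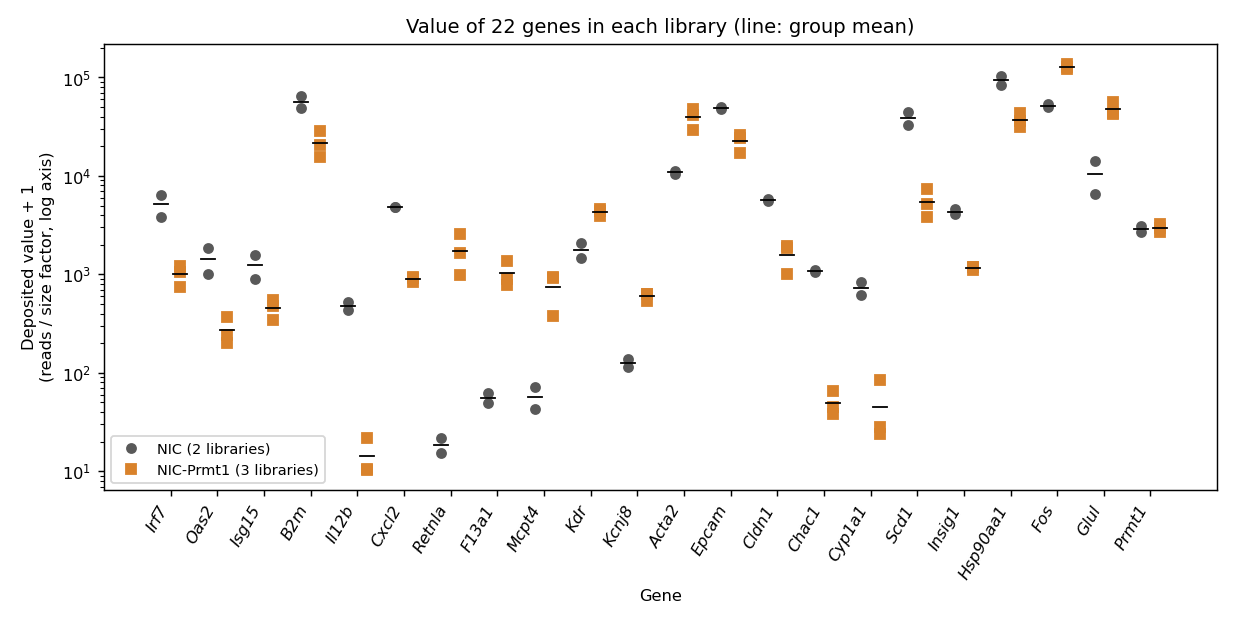
Deposited value plus 1, on a log axis, of 22 genes in each of the 2 NIC (grey circles) and 3 NIC-Prmt1 (orange squares) libraries, with a line at each group mean. The groups are separate for every gene shown except Prmt1, whose NIC values are 2675 and 3077 and NIC-Prmt1 values 2963, 2702 and 3258.

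Interferon-stimulated genes fell together. These genes are switched on by type I interferon, and many of their products act against viral RNA. Of 38 tested members 25 fell, against 14.4% of all genes, and none rose. Their median log2 fold change was -1.08, 31 lay below NIC in every library, and 18 kept the call in every alternative (between 18 and 30 members fell per alternative). Of all tested genes 27.1% lay below NIC in every library. Irf7, the transcription factor that amplifies interferon production, fell from 3829 and 6428 to 740.5, 1227 and 1050.0 (-2.33 ± 0.26, adjusted p = 0.000562). Irf9, a transcription factor of the interferon response, fell from 2943 and 3074 to 1811, 2059 and 2101 (-0.60 ± 0.11). Among the 2'-5' oligoadenylate synthetases, which activate RNA decay, Oas2 fell from 1019.6 and 1839.7 to 202, 366 and 242 (-2.39 ± 0.27). Oas3 fell from 165 and 204 to 58.3, 77.7 and 50.6 (-1.57 ± 0.21). Isg15, a ubiquitin-like modifier, fell from 902 and 1579.7 to 342, 474 and 545 (-1.42 ± 0.25). Usp18, which removes it, fell from 589.6 and 1164 to 184, 308 and 299.7 (-1.69 ± 0.30). In each of these genes the lower NIC library was replicate 1, and all 3 NIC-Prmt1 values lay under it.

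Some interferon-inducible genes did not pass and had overlapping groups. Ifit2 was at 267 and 317 in NIC and 363, 283 and 278 in NIC-Prmt1 (adjusted p = 0.881). Iigp1, a GTPase that answers mainly to interferon gamma, was at 6135 and 6631 in NIC and 5263, 6915 and 5314 in NIC-Prmt1 (adjusted p = 0.753). Cxcl9 and Cxcl10, chemokines that answer to interferon gamma, had log2 fold changes of 0.22 ± 0.24 and -0.24 ± 0.18 (adjusted p = 0.507 and 0.344). Against the mean of the NIC-Carm1 and NIC-Prmt6 groups, 12 of the 38 members were lower in NIC-Prmt1 and none was higher, where 1.29% of all genes were lower. Oas2 differed there by -2.01 (adjusted p = 0.00327) and Oas3 by -1.63 (adjusted p = 0.00253). These calls treat the nearly identical libraries of those groups as separate.

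The upstream sequence of 3 members that fell and of 2 stress genes described later is shown because each carries the short motif its regulator is known to bind. The 250 bases before the RefSeq transcription start are given on GRCm38.p6, on the gene's own strand. Capitals mark GAAANNGAAA, the core of the interferon-stimulated response element, in Isg15, Oas1a and Ifit1, TGATGNAA, the core of the amino acid response element, in Chac1, and GCGTG, the core of the dioxin response element bound by the aryl hydrocarbon receptor, in Cyp1a1, each searched on both strands, so a match on the other strand shows its complement. Overlapping matches run together. Isg15 is at chr4:156200819-156201068 (minus strand), Oas1a at chr5:120907526-120907775 (minus), Ifit1 at chr19:34640639-34640888 (plus), Chac1 at chr2:119350992-119351241 (plus) and Cyp1a1 at chr9:57697363-57697612 (plus).
Isg15: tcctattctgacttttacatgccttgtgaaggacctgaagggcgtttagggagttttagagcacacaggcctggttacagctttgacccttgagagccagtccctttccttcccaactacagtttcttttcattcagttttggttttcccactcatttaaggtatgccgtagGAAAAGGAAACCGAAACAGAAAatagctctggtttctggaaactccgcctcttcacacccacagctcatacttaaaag
Oas1a: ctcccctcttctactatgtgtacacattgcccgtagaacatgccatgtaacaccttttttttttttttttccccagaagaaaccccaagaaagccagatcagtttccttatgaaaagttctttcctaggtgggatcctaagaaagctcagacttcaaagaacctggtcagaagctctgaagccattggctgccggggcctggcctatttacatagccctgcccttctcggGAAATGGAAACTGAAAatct
Ifit1: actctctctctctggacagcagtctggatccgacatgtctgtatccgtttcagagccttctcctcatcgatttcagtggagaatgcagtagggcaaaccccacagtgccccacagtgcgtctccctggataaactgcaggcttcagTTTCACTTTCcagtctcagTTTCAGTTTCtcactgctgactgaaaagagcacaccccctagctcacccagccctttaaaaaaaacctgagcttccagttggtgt
Chac1: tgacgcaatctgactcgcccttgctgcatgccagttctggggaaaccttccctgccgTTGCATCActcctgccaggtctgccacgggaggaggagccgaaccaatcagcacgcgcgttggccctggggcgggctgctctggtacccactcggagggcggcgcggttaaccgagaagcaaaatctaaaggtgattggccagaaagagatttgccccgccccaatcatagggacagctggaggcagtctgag
Cyp1a1: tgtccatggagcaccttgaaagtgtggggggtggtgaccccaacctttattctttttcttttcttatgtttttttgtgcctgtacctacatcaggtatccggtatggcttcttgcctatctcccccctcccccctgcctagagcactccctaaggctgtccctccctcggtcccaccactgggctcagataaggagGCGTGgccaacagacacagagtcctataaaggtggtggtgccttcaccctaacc

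Isg15 has 3 overlapping matches between 78 and 57 bases before its start, Oas1a has 2 within 20 bases of its start, and Ifit1 has 2 between 104 and 76 bases before it. A promoter of this length was at hand for 18 of the 25 members that fell, and 9 of the 18 held the interferon motif. It also stood in 6 of 10 members that did not pass the test, and in 3.25% of the 11717 tested genes with a promoter. The share with the motif was thus no smaller among members that did not pass. Chac1 has its match between 193 and 186 bases before the start. That motif stood in 3 of 10 promoters of the amino acid stress genes that fell, 2 of 10 of the rest and 2.54% of tested genes. Cyp1a1 has 1 match, 54 to 50 bases before its start, and that short motif is common: 47.1% of tested genes hold it.

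Genes of antigen presentation by MHC class I fell as well. Of 13 tested members 8 fell and 1 rose, where 14.4% of all genes fell and 15.2% rose, with a median of -0.69. B2m, the invariant light chain, fell from 48942 and 64496 to 15745, 28436 and 20617 (-1.42 ± 0.26, adjusted p = 0.0044). H2-K1, a classical heavy chain, fell from 52536 and 70229 to 17207, 31702 and 24708 (-1.35 ± 0.25, adjusted p = 0.00448). Nlrc5, the transactivator of these genes, had values of 1525 and 1829 in NIC and 578, 1094 and 532 in NIC-Prmt1 (-1.26 ± 0.27, adjusted p = 0.00764). Tap2, one of the transporter subunits, went the other way at 0.39 (adjusted p = 0.0462). Only B2m and H2-K1 kept their call in every alternative, and 2 members fell without NIC replicate 2 and 5 with the 5 libraries alone. The H2 genes are similar in sequence, so reads could have been split between them. Class II genes did not follow: 1 of 11 fell, with a median of -0.47.

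Macrophage genes split into 2 blocs that moved in opposite directions. Markers of tissue-resident and alternatively activated macrophages, scavenging cells of connective tissue, rose in 21 of 27 tested members, against 15.2% of all genes, with a median of 2.68. Of these 16 kept the call in every alternative, and 1 member fell. Folr2, a folate receptor, rose from 57.6 and 61.1 to 421, 555 and 483 (3.004 ± 0.29). Clec10a, a lectin, rose from 56.7 and 37.7 to 354, 584 and 494 (3.31 ± 0.40). Pf4, a platelet-type chemokine, rose from 18.9 and 15.6 to 109, 164 and 179 (3.03 ± 0.37). F13a1, the coagulation factor XIII subunit made by such macrophages, rose from 61.4 and 48.1 to 782, 1379.6 and 903 (4.16 ± 0.44, adjusted p = 0.000529). Ccl24, an eosinophil chemokine, rose from 2.83 and 1.30 to 37.1, 99.4 and 84.7 (4.54 ± 0.78), with NIC at no more than the floor of 3 reads, so the size of its rise is uncertain. Every NIC-Prmt1 library was above both NIC libraries in each of these genes. The member that fell was Arg1 (-0.64 ± 0.15, adjusted p = 0.0104), an enzyme of alternatively activated macrophages that other cells also make, and its call was lost without NIC replicate 1 (adjusted p = 0.0719). Cd209 genes are close relatives, so values for one of them are uncertain.

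Genes of activated macrophages and dendritic cells fell in 10 of 21 tested members and rose in 2, with a median of -1.48; 6 fell with the nearly identical libraries averaged or without NIC replicate 1. Il12b, Il1a, Cxcl2 and Cd40 kept the call in every alternative. Il1a, an inflammatory cytokine, fell from 574 and 696 to 104, 201 and 174 (-2.03 ± 0.37). Cd40, a costimulatory receptor, fell from 176 and 149.5 to 32.9, 78.7 and 35.1 (-1.82 ± 0.36). Il10, an anti-inflammatory cytokine, fell with them, from 220.2 and 231 to 21.2, 38.3 and 25.8 (-2.99 ± 0.45). Il1rn, the natural blocker of the interleukin 1 receptor, fell from 983 and 971 to 85.9, 169.9 and 145 (-2.92 ± 0.24, adjusted p = 0.000204). Nos2, a nitric oxide synthase of inflammatory macrophages, rose (1.48 ± 0.37, adjusted p = 0.0152), but not without NIC replicate 1 (adjusted p = 0.112).

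Pan-macrophage markers stood between the blocs. Of 16 genes such as Csf1r, Cd68 and C1qa, 2 rose and 2 fell, and the median was 0.07. Csf1r, the receptor macrophages need to survive, was at 1788 and 1294 in NIC and 1188, 2316 and 1844 in NIC-Prmt1 (adjusted p = 0.666). The summed level of these 16 genes was 868 and 758 CPM in NIC and 578, 976 and 959 in NIC-Prmt1, where the alternative markers summed to 1033 and 953 and 1784, 1801 and 1776, and the activated ones to 612 and 544 and 229, 337 and 287. In these bulk samples fewer cells of a type and less RNA per cell cannot be told apart.

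Chemokine genes, which position leukocytes, moved in both directions: 8 of 28 rose and 5 fell, where 15.2% of all genes rose and 14.4% fell. Members such as Ccl24, Ccl8 and Cxcl2 are also counted in the macrophage lists above. All 8 that rose kept the call in every alternative. Ccl6 rose from 44.4 and 49.4 to 423, 606 and 503 (3.40 ± 0.27). Ccl11, an attractant of eosinophils, rose from 548 and 692 to 1607, 1412 and 1626 (1.33 ± 0.23). Cxcl12, a stromal chemokine, rose from 2215 and 3748 to 8742, 6557 and 7474 (1.39 ± 0.20). Cxcl15 rose from 465 and 1123 to 3619, 3297 and 3611 (2.28 ± 0.32). Cxcl15 was also above the other transgenic groups (1.59, adjusted p = 0.0157, with their nearly identical libraries taken as separate). Among the falls were 2 attractants of neutrophils. Cxcl1 fell from 14391 and 16951 to 6132, 4338 and 4885 (-1.62 ± 0.14). Cxcl2 fell from 4795 and 4816 to 922, 843 and 939 (-2.42 ± 0.09). Cxcl16, the ligand of CXCR6, fell from 4277 and 3759 to 1887, 1953 and 2153 (-1.01 ± 0.15). The count of chemokines that fell was 3 with the nearly identical libraries averaged and 9 without NIC-Prmt1 replicate 2.

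Mast cell genes rose in 9 of 10 tested members, against 15.2% of all genes, with a median of 2.48. Against the other transgenic groups 0 of the 10 were higher. Tpsb2, a tryptase gene, rose from 44.4 and 96.2 to 334, 723 and 752 (3.10 ± 0.46). Cpa3, a carboxypeptidase gene, rose from 43.5 and 84.5 to 280.1, 590.4 and 644 (2.94 ± 0.45). The chymase gene Mcpt4 rose from 41.6 and 70.2 to 377, 908 and 936 (3.64 ± 0.49, adjusted p = 0.00124). NIC-Prmt1 replicate 1 was the lowest of its group for all 3, and still above both NIC libraries. Kit, a receptor gene that luminal progenitors also express, was the member that did not pass (adjusted p = 0.404). The summed level of the 10 genes, Kit included, was 333 and 428 CPM in NIC and 399, 573 and 507 in NIC-Prmt1, and so overlapped between the groups. Without NIC replicate 1, 4 members were called. T and NK cell genes rose in 1 of 17 and fell in 0, and none of 12 B and plasma cell genes passed in either direction. The summed B cell level ranged over 54.2 and 9.63 CPM in NIC and 7.27, 89.6 and 9.36 in NIC-Prmt1 and so differed as much within the groups as between them.

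**Figure D3:**
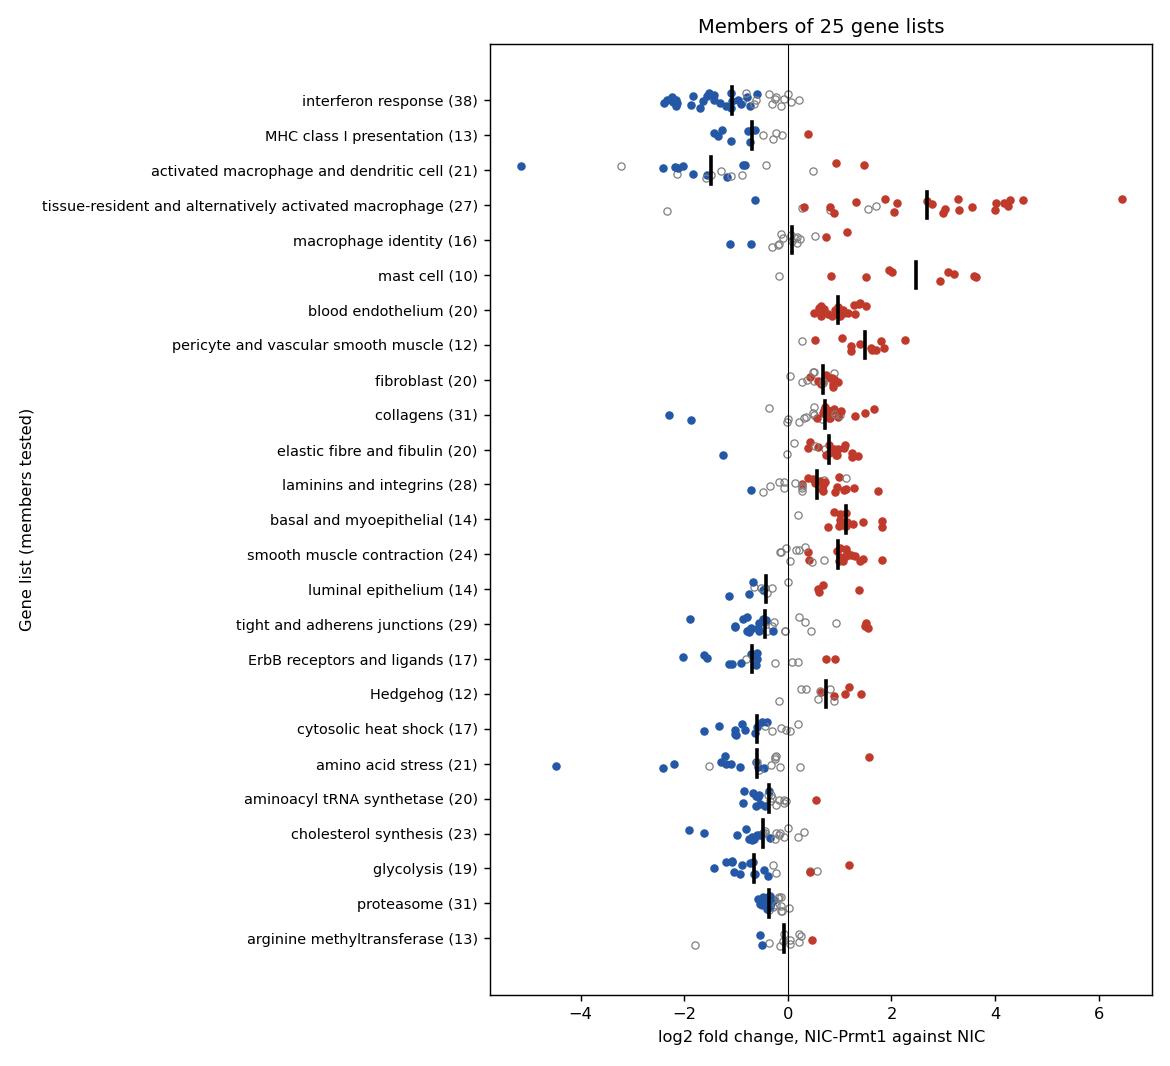
Each point is 1 tested member of 25 gene lists, placed by its log2 fold change in NIC-Prmt1 against NIC. Filled red and blue points were higher and lower at an adjusted p under 0.05, open points did not pass, and black bars are list medians, from -1.48 for activated macrophages to 2.68 for alternatively activated ones.

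Genes of blood vessels rose. All 20 tested markers of blood endothelium, the cell layer that lines vessels, were higher in NIC-Prmt1, where 15.2% of all genes were. Their median was 0.97. Every one of them lay above both NIC libraries in all 3 NIC-Prmt1 libraries, as did 28.2% of all genes. Against the other transgenic groups 0 of the 20 were higher. Kdr, the main receptor of vascular endothelial growth factor, rose from 1461 and 2067 to 4586, 3885 and 4379 (1.30 ± 0.14, adjusted p = 0.000545). Cldn5, the endothelial tight junction claudin, rose from 656 and 991 to 2386, 1816 and 2834 (1.52 ± 0.24). Sox17, an arterial transcription factor, rose from 294 and 378 to 1016, 670.1 and 949 (1.37 ± 0.18). Of the 20 calls, 8 held in every alternative and 8 without NIC replicate 1. The endothelial markers summed to 2716 and 3386 CPM in NIC and 7996, 5478 and 6088 in NIC-Prmt1. They summed to 2710, 3810 and 3709 in NIC-Carm1 and 7150 and 7152 in NIC-Prmt6. Their part in the other stromal differences was not tested.

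Pericytes, the contractile cells around small vessels, also had raised markers. Of 12 markers 11 rose, with a median of 1.50, and 8 held in every alternative. Kcnj8, a potassium channel gene, rose from 113 and 138 to 638, 542 and 628 (2.26 ± 0.14, adjusted p = 7.61e-05). Rgs5, a G protein regulator, rose from 616 and 712 to 2822, 2146 and 2065 (1.81 ± 0.14, adjusted p = 0.000194). Pdgfrb, the receptor that recruits pericytes, rose from 1566 and 1630.4 to 5479, 3374 and 3976 (1.39 ± 0.16). NIC-Prmt1 replicate 1 was the highest library for all 3, and the groups did not overlap. Of 23 angiogenic factors and receptors 15 rose and 2 fell. Aplnr, the apelin receptor of sprouting vessels, rose from 208 and 385 to 2329.7, 1390.0 and 1789 (2.66 ± 0.29). Plxnd1, a semaphorin receptor, rose from 2257 and 2474 to 7082, 5429 and 6316 (1.40 ± 0.13). Nrp1, a coreceptor, rose from 1656 and 1825 to 4147, 3401 and 3802 (1.12 ± 0.12). Vegfa, the principal ligand, was at 3944 and 3616 in NIC and 3031, 2384 and 3082 in NIC-Prmt1, all 3 values under both of NIC, and did not pass (adjusted p = 0.377). Ephb4, a receptor of venous endothelium and of epithelium, fell (-0.45 ± 0.08, adjusted p = 0.00444). Of these members 9 rose with the nearly identical libraries averaged or without NIC replicate 1, and 8 without NIC replicate 2.

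Notch pathway genes, through which neighbouring cells signal, rose in 7 of 17 and fell in 3, where 15.2% of all genes rose and 14.4% fell. Notch3, the receptor of mural cells, rose from 7353 and 6597 to 19255, 12575 and 12391 (1.05 ± 0.20). Heyl, a Notch target, rose from 146 and 207 to 685, 429.8 and 528 (1.63 ± 0.23), as did Mfng, a sugar transferase that tunes Notch receptors (0.96 ± 0.13). Notch1 and Notch2 had log2 fold changes of -0.57 ± 0.14 and -0.64 ± 0.14 (adjusted p = 0.0129 and 0.00953), and each call was lost in 1 alternative, that without NIC replicate 1 (adjusted p = 0.102 and 0.0724). The number that rose was 4 with the 5 libraries alone, 3 without NIC replicate 1 and 4 without NIC replicate 2.

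Fibroblast markers rose in 11 of 20 tested members, with a median of 0.67, but 1 of these calls, that of Thy1 (0.88 ± 0.13, adjusted p = 0.00151), was left without NIC replicate 1. The summed level was 4556 and 5561 CPM in NIC and 9743, 7215 and 8370.3 in NIC-Prmt1. Against the other transgenic groups 0 of the 20 were higher. Col1a1 and Col1a2, the chains of type I collagen, were at 0.50 and 0.51 and did not pass (adjusted p = 0.132 and 0.072). Of 15 adipocyte genes 2 rose, near the 15.2% of all genes that did. Among them Fabp4, a fatty acid binding protein gene also made by endothelium, rose from 6798 and 7979 to 21169, 15239 and 24532 (1.44 ± 0.17). Adipoq, the defining hormone of fat cells, had a log2 fold change of -1.22 (adjusted p = 0.321).

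**Figure D4:**
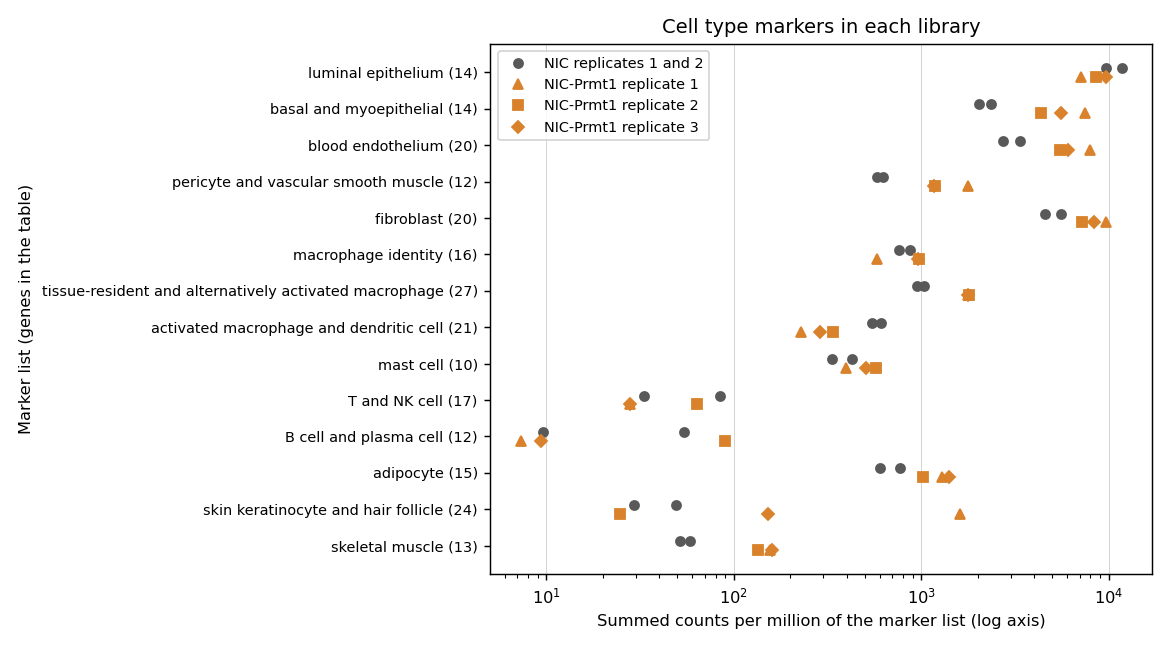
Summed CPM of 14 cell type marker lists, on a log axis, in NIC (grey circles) and NIC-Prmt1 (orange, 1 shape per replicate). Endothelial, pericyte, fibroblast and basal sums are higher in all 3 NIC-Prmt1 libraries, the sum for activated macrophages and dendritic cells is lower in all 3, and skin genes stand out in NIC-Prmt1 replicate 1 at 1613 CPM.

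Extracellular matrix genes were raised across classes, where 15.2% of all genes rose and 14.4% fell. Of 31 collagen genes 17 rose and 2 fell, with a median of 0.71, and 8 rises held in every alternative (10 without NIC replicate 1 and 11 without NIC replicate 2). Col6a3, a chain of the microfibrillar collagen VI, rose from 5097 and 7031 to 18461, 18734 and 13588 (1.48 ± 0.17). Col18a1, a vessel basement membrane collagen, rose from 2752 and 3591 to 8311, 5259.6 and 5928 (1.02 ± 0.18). Col17a1, which anchors basal epithelium, rose from 1297 and 901 to 4591, 2742 and 3205 (1.67 ± 0.20). The groups stood apart for each, with the basement membrane chains highest in NIC-Prmt1 replicate 1. The 2 that fell, Col9a1 and Col11a1, are cartilage-type chains (-2.29 ± 0.60 and -1.86 ± 0.41, adjusted p = 0.0191 and 0.00957), and neither call held without NIC replicate 1 (adjusted p = 0.0706 and 0.052).

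Elastic fibre genes behaved alike: 15 of 20 rose and 1 fell, with 6 rises kept in every alternative, 7 without NIC replicate 1 and 9 without NIC replicate 2. Fbn1, the scaffold of microfibrils, rose from 2709 and 2869 to 7368, 6935 and 5601 (1.24 ± 0.12, adjusted p = 0.000371). Eln, elastin itself, rose from 4247 and 4484 to 10558, 8014 and 9852 (1.11 ± 0.15). Eln was also higher than in the other transgenic groups (0.84, adjusted p = 0.00897, with their nearly identical libraries taken as separate). Of 28 laminins, nidogens and integrins 16 rose, 9 of them in every alternative and 9 without NIC replicate 2. Lama1, a laminin chain, rose from 473 and 432 to 1859.7, 1259 and 1488 (1.74 ± 0.26). Nid2, a basement membrane linker, rose from 610.4 and 719 to 1594, 1198 and 1451 (1.08 ± 0.13). Itga7, a laminin receptor of muscle-like cells, rose from 776 and 856 to 2607, 1584 and 1854 (1.27 ± 0.20). NIC-Prmt1 replicate 1 had the highest value for all 3, and the groups did not overlap.

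Among proteoglycans 10 of 20 rose and 3 fell, and 6 rose with either NIC library left out. Hspg2, perlecan of basement membranes, rose from 9158 and 10686 to 29358, 18482 and 18703 (1.13 ± 0.19). Sdc4, a syndecan of the epithelial surface, fell from 44456 and 55764 to 15359, 24679 and 24759 (-1.24 ± 0.20). Of 24 matrix proteases and inhibitors 12 rose and 3 fell (6 and 7 rises without NIC replicates 1 and 2, and 0 falls without NIC replicate 1 and 1 with the 5 libraries alone). Mmp14, a membrane-bound collagenase, rose from 2457 and 2361 to 6694, 5149.8 and 5922 (1.29 ± 0.17). Adamts1, a proteoglycan protease, rose from 15384 and 13717 to 48062, 33794 and 33129 (1.38 ± 0.24).

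Basal and myoepithelial genes rose in 12 of 14 tested members, with a median of 1.11, and 8 held in every alternative. Against the other transgenic groups 13 of the 14 were higher, where 2.41% of all genes were. These calls treat the nearly identical libraries of those groups as separate. With them averaged, 1 gene of all those tested was higher there. Krt5, a keratin of the basal layer, rose from 2206 and 1571 to 10794, 4320.1 and 6037 (1.81 ± 0.30, adjusted p = 0.003). Oxtr, the oxytocin receptor through which milk ejection is triggered, rose from 778 and 614 to 2924, 1475 and 1591 (1.46 ± 0.25). Acta2, smooth muscle actin, rose from 10521 and 11239 to 47531, 29112 and 41248 (1.82 ± 0.18, adjusted p = 0.000383). NIC-Prmt1 replicate 1 was the highest library for all 3, and the other 2 NIC-Prmt1 libraries also exceeded both NIC libraries. Against the other transgenic groups Krt5 differed by 1.71 (adjusted p = 0.00975), with values of 2014, 2039 and 2298 in NIC-Carm1 and 1829 and 1992 in NIC-Prmt6. Krt14 had a log2 fold change of 1.11 ± 0.43 and an adjusted p of 0.073. The skin markers of NIC-Prmt1 replicate 1 moved in the same direction, and Krt5, Krt14, Krt17 and Trp63 are also made by skin. Without that library 10 of the 14 were still called. That does not remove skin, since NIC-Prmt1 replicate 3 held 151 CPM of skin markers against 48.9 and 29.4 in NIC. The part of skin was not tested.

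Contractile genes of smooth muscle rose in 15 of 24, with a median of 0.98 and 9 kept in every alternative (10 with either NIC library left out). Of the 24, 11 were higher than in the other transgenic groups, again with the nearly identical libraries taken as separate. Cnn1, calponin, rose from 2213 and 2019 to 5276, 3222 and 4463 (1.002 ± 0.17) and differed by 1.38 from those groups (adjusted p = 0.00235). Myl9, a myosin light chain, rose from 4630.2 and 4739 to 15060.1, 9072 and 10995 (1.29 ± 0.24). The transcription factor genes of the programme did not pass: Srf was at -0.03 and Myocd at 0.21 (adjusted p = 0.899 and 0.768). Basal cells, pericytes and vessel smooth muscle share these genes, and how much each contributed was not tested. The CArG box, which SRF binds, was found in 1 of 12 promoters of members that rose, 2 of 6 of the rest and 1.43% of tested genes.

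Luminal genes gave a mixed picture. Of 14 pan-luminal markers 4 rose and 4 fell. Epcam, the epithelial adhesion molecule, fell from 47439 and 50031 to 17215, 24259.5 and 25941 (-1.14 ± 0.16, adjusted p = 0.00153). Cdh1, E-cadherin, fell from 22362 and 17826 to 10592, 12371 and 12675 (-0.75 ± 0.12). Krt7, a simple keratin, rose from 5544 and 5541 to 9146, 7974 and 9442 (0.67 ± 0.11). Prom1, the CD133 glycoprotein, rose from 1543 and 1554 to 3403, 5061 and 3712 (1.37 ± 0.19). Adhesion genes were thus lower and these 2 surface and keratin genes higher, in all 3 NIC-Prmt1 libraries. Krt8 and Krt18, which define the layer, had log2 fold changes of -0.66 ± 0.24 and -0.67 ± 0.20 (adjusted p = 0.0605 and 0.0296), and the call of Krt18 was lost in 8 alternatives, both NIC leave-outs among them (adjusted p = 0.162 and 0.0676). With the nearly identical libraries averaged, the 5 libraries alone or NIC replicate 2 left out, 2 of the markers rose, 2 fell without NIC replicate 1, and 7 fell without NIC-Prmt1 replicate 3. The luminal sum was 11844 and 9694 CPM in NIC and 7086, 8575 and 9684 in NIC-Prmt1, and the highest NIC-Prmt1 sum lay just under the lower NIC sum.

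Of 18 luminal progenitor and milk genes 4 fell and none rose, with a median of -0.88. Ehf, an epithelial transcription factor, fell from 9349 and 7413 to 3444, 4246 and 4186 (-1.08 ± 0.14). Lcn2, an iron-binding secreted protein, fell from 77741 and 94412 to 20234, 37320.4 and 43130.1 (-1.42 ± 0.27). Csn3 fell from 118315 and 121756 to 36218, 48043 and 63469 (-1.32 ± 0.27). Other caseins did not pass, with Csn2 at -1.02 ± 1.58 and Csn1s1 at -1.37 ± 1.11 (adjusted p = 0.652 and 0.373). Hormone-sensing genes leaned the other way: 6 of 14 rose, 3 of them without NIC replicate 2. Pgr, the progesterone receptor, rose from 1357 and 1364 to 4718, 4051 and 3519.9 (1.58 ± 0.17, adjusted p = 0.000548). Areg, the growth factor through which oestrogen acts on the duct, rose from 4566 and 4374 to 7844, 6732 and 7789 (0.73 ± 0.09). Both exceeded the other transgenic groups, Areg by 1.21 (adjusted p = 0.00024) and Pgr by 0.82 (adjusted p = 0.0168). Both of those calls take the nearly identical libraries of the other groups as separate. Esr1, the oestrogen receptor, was at 1118 and 634 in NIC and 1528, 1518 and 1327 in NIC-Prmt1 (adjusted p = 0.0835).

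Junction genes, which seal and join epithelial cells, fell in 16 of 29 and rose in 3, with a median of -0.45; 6 falls held in every alternative and 6 without NIC replicate 1, and 5 members rose without NIC-Carm1 replicate 1, with DESeq2, with the replicate block or with upper-quartile scaling. Cldn1, a sealing claudin, fell from 5775 and 5505 to 1005, 1847 and 1919 (-1.88 ± 0.24, adjusted p = 0.000957). Ocln, occludin, fell from 2343 and 1759 to 1061, 1277 and 1207 (-0.78 ± 0.15), and the desmosome genes Dsg2 and Pkp2 by 0.79 and 0.87 on the log2 scale. The 3 that rose were Cldn5, counted above with endothelium, Cldn8 (1.55 ± 0.26) and Cdh3. Cdh3, P-cadherin of basal cells, rose from 421 and 335 to 1454, 832 and 963 (1.48 ± 0.28). Of 14 genes of mesenchymal transition 7 rose, 2 of them without NIC replicate 1 and 3 without NIC replicate 2. Cdh2, N-cadherin, rose (1.34 ± 0.25) and Vim, vimentin, did not pass (0.51 ± 0.22, adjusted p = 0.0984).

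Receptors and ligands of the ErbB family, growth factor receptors of the mammary gland, fell in 10 of 17 and rose in 2, with a median of -0.69; 4 falls held in every alternative and 5 without NIC replicate 1. Egfr fell from 3439.6 and 3561 to 2504, 2345 and 2042 (-0.61 ± 0.09). Egfr was also under the other transgenic groups (-0.66, adjusted p = 0.00413, with their nearly identical libraries taken as separate). Its ligands divided: Tgfa fell from 1608 and 1474 to 911, 674 and 622 (-1.08 ± 0.15) and Epgn by 1.57 on the log2 scale, while Areg and Btc, betacellulin (0.90 ± 0.17), rose. Nrg1, a ligand of ErbB3 and ErbB4, fell from 200.3 and 237 to 121, 115 and 113 (-0.90 ± 0.18). Erbb2, the receptor without a known ligand, had values of 9343 and 15110.4 in NIC and 5714, 11187 and 6282 in NIC-Prmt1 (-0.69 ± 0.27, adjusted p = 0.0788) and the groups overlapped.

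Other growth factor pathways had more rises than falls, where 15.2% of all genes rose and 14.4% fell. Of 33 Wnt pathway genes 10 rose and none fell, but without NIC replicate 2 that was 1, and without NIC-Prmt1 replicate 1 it was 6. Nkd1, a feedback inhibitor of Wnt signalling, kept its call throughout, at 365 and 337 in NIC and 1154, 605 and 928 in NIC-Prmt1 (1.30 ± 0.24). Axin2, a common readout of the pathway, was at 0.03 (adjusted p = 0.888). Of 12 Hedgehog genes 5 rose, 3 without NIC replicate 1, 2 without NIC replicate 2 and 8 without NIC-Prmt1 replicate 2 or with DESeq2. Gli2, a transcription factor (1.11 ± 0.21), and Cdon, a coreceptor (1.18 ± 0.19), kept their calls in every alternative. In the TGF-beta and BMP family 10 of 31 rose and 2 fell (6 and 5 rises without NIC replicates 1 and 2). Bmp3 rose from 201 and 212 to 844, 701 and 596 (1.77 ± 0.16, adjusted p = 0.00028). Id3, a target of BMP, rose from 1703 and 2113 to 4588, 3510.2 and 4305 (1.11 ± 0.16). Of 26 FGF, IGF and PDGF genes 9 rose and 1 fell (4 and 5 rises without NIC replicates 1 and 2, and 5 with the nearly identical libraries averaged). Igf1, a growth factor that stroma supplies to the epithelium, rose from 479 and 469 to 1097, 752 and 828 (0.89 ± 0.16).

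Immediate early genes, which cells induce within minutes of a stimulus and also during tissue dissociation, rose in 11 of 28 and fell in 2. Of the rises 6 held in every alternative and 6 without NIC replicate 2. Klf2, a factor induced by flow in endothelium, rose from 825 and 867 to 3143, 3898 and 4982 (2.22 ± 0.30). Btg2, an antiproliferative protein that binds PRMT1, rose from 7675 and 8333 to 17775, 23629.8 and 27836 (1.50 ± 0.18). Dusp1, a MAP kinase phosphatase, rose from 9054 and 7019.5 to 15014, 12631 and 15068 (0.83 ± 0.15). NIC-Prmt1 replicate 3 had the highest value for all 3. Jun and Myc did not pass, at 0.39 ± 0.18 and -0.02 ± 0.13 (adjusted p = 0.13 and 0.94). Cytosolic heat shock genes fell: 11 of 17, none up, with a median of -0.60 and 6 kept in every alternative (7 with the 5 libraries alone and 6 without NIC replicate 1). Hsph1, a chaperone of the HSP110 class, fell from 19791 and 20693 to 5318, 7341 and 7393 (-1.61 ± 0.15, adjusted p = 0.000296). Hspb1, a small heat shock protein, fell from 47608 and 38560.0 to 19567, 18720.3 and 26577 (-1.005 ± 0.16). Hsp90aa1, the inducible HSP90, fell from 103936 and 82939.6 to 31217, 36551 and 43905 (-1.33 ± 0.16). NIC-Prmt1 replicate 3 had the least reduced value for all 3 heat shock genes. Both families also respond to how tissue is handled, and the labels do not give the time from gland to lysis. Its part was not tested.

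Genes of the amino acid stress response, which ATF4 drives when amino acids are short, fell in 11 of 21 and rose in 1. The median was -0.59, 8 falls held in every alternative, and between 8 and 14 members fell per alternative. Trib3, a pseudokinase, fell from 1826 and 2195 to 238, 559 and 392 (-2.42 ± 0.28). Mthfd2, a mitochondrial folate enzyme, fell from 619.9 and 529 to 129, 134 and 112 (-2.19 ± 0.16, adjusted p = 0.000141). Psat1, of serine synthesis, fell from 1458 and 1253 to 484, 665 and 609 (-1.22 ± 0.19). NIC-Prmt1 replicate 2 had the least reduced value for all 3. Atf4 itself overlapped between the groups, at 17239.6 and 14558 in NIC and 13278, 12131 and 15333 in NIC-Prmt1 (adjusted p = 0.32). The member that rose was Stc2, a secreted glycoprotein, from 4536 and 3938 to 14039.5, 11319 and 12521 (1.57 ± 0.12, adjusted p = 0.000157). Stc2 was also above the other transgenic groups by 1.25 (adjusted p = 0.000676, with their nearly identical libraries taken as separate).

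Amino acid transport and charging genes fell in part. Slc7a11, the cystine importer, fell from 472 and 291 to 103, 73.5 and 97.1 (-2.03 ± 0.24). Slc7a5, the large neutral amino acid carrier, fell from 7685 and 8593 to 2102, 3970.1 and 3264 (-1.43 ± 0.21). Slc7a2, which carries arginine and lysine, rose from 2502 and 3799 to 15388, 10440.4 and 8693 (1.86 ± 0.28), and in all 4 of 17 transporters rose and 6 fell (3 falls with the nearly identical libraries averaged and 3 without NIC replicate 1). Of 20 cytosolic tRNA synthetases 10 fell, 4 without NIC replicate 2. Nars fell from 6155 and 6460.5 to 3269, 3522 and 3734 (-0.85 ± 0.11), and Cars by 0.87 on the log2 scale. Wars, the tryptophan enzyme that interferon gamma induces, was the one that rose, from 1608 and 1689 to 2229.9, 2609 and 2420.3 (0.55 ± 0.11). Of 20 chaperones and sensors of the endoplasmic reticulum 3 fell, including the transcription factor gene Xbp1, from 29302 and 41202 to 7442, 15758 and 12423 (-1.62 ± 0.27), and 1 rose, where 14.4% of all genes fell and 15.2% rose. The number that fell was 7 without NIC-Carm1 replicate 1 and 5 with DESeq2.

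Detoxification genes changed gene by gene, where 15.2% of all genes rose and 14.4% fell. Of 9 genes of the aryl hydrocarbon receptor pathway 4 fell and 2 rose. Cyp1b1 and the repressor gene Ahrr had log2 fold changes of -1.54 ± 0.46 and -1.42 ± 0.47 (adjusted p = 0.0319 and 0.0452), and of the 4 falls that of Cyp1a1 alone held in every alternative and without NIC replicate 1. The number that fell was 2 without NIC replicate 2, either of NIC-Prmt1 replicates 2 and 3 or either NIC-Prmt6 library. Of 18 genes of the NRF2 pathway, which answers to oxidants, 5 rose and 7 fell (1 and 4 without NIC replicate 1, and 3 rises without NIC replicate 2 or NIC-Prmt1 replicate 1 or 3). Hmox1, haem oxygenase, fell from 14427 and 7277 to 1872, 3082 and 3786 (-1.87 ± 0.30). Gclc, the first enzyme of glutathione synthesis, rose from 1133 and 1138 to 2195, 2327 and 1943 (0.92 ± 0.09, adjusted p = 0.000386). Iron and metal genes fell in 9 of 17 and rose in 2, with 5 falls without NIC replicate 1. Tfrc, the transferrin receptor, fell from 2496 and 2499 to 979, 1309 and 1012 (-1.20 ± 0.14). Ftl1, ferritin light chain, fell from 56681 and 51634 to 26216, 30991 and 37791 (-0.79 ± 0.16), and Heph, an iron oxidase of export, rose (1.11 ± 0.20).

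Lipid synthesis genes fell in part. Of 23 cholesterol pathway genes 11 fell and none rose, and 9 held in every alternative. Insig1, the sterol sensor that holds back SREBP processing, fell from 4067 and 4613 to 1183, 1179.7 and 1095 (-1.91 ± 0.10, adjusted p = 4.22e-05). Dhcr7, the last enzyme of the pathway, fell from 2334 and 2539 to 527, 1147 and 826 (-1.62 ± 0.25). Lss, lanosterol synthase, fell from 1159 and 1448 to 700.2, 889.7 and 656 (-0.80 ± 0.15) and Fdft1, squalene synthase, by 0.59 on the log2 scale. Insig1 was nearly the same in the 3 NIC-Prmt1 libraries, while Dhcr7 and Lss varied more. Of 19 fatty acid genes 6 fell and 1 rose (4 falls without NIC replicate 1). Scd1, a desaturase, fell from 44135 and 32707 to 3822, 7391 and 5185 (-2.85 ± 0.40, adjusted p = 0.00142). Its paralogue Scd2 fell from 17626 and 14562 to 5646, 6816 and 4675 (-1.50 ± 0.15). Lpin1, a phosphatidate phosphatase, fell from 3493 and 3785 to 1283, 1394 and 1377 (-1.43 ± 0.10). The 3 were lower in every NIC-Prmt1 library. Lpin1 also differed from the other transgenic groups (-1.10, adjusted p = 0.000676, with their nearly identical libraries taken as separate). Fasn, fatty acid synthase, did not pass (-0.48 ± 0.37, adjusted p = 0.348).

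Glycolytic genes fell in 13 of 19 and rose in 2, with a median of -0.64, and 7 falls held in every alternative and without NIC replicate 2. Slc2a1, the glucose carrier GLUT1, fell from 16966 and 17085 to 5777, 8747 and 8203 (-1.19 ± 0.16). Pgk1, phosphoglycerate kinase, fell from 7809 and 8785 to 3910.4, 4933 and 4712 (-0.88 ± 0.11). Pkm, pyruvate kinase, fell from 47502 and 48248 to 18378, 27193 and 23671 (-1.07 ± 0.15). All 3 were lowest in NIC-Prmt1 replicate 1 and highest, still under NIC, in replicate 2. Slc16a3, which exports lactate, rose from 89.8 and 72.8 to 176, 172 and 212 (1.19 ± 0.20). Of 18 hypoxia genes 3 rose and 5 fell (1 rose without NIC replicate 2 and 3 fell without NIC replicate 1). Over all tested genes 15.2% rose and 14.4% fell. Egln3, an oxygen-sensing prolyl hydroxylase, fell from 5576 and 5322 to 1001, 1764 and 1482 (-1.98 ± 0.19, adjusted p = 0.000371). Bnip3 and Ndrg1, further targets of the pathway, were at 0.24 ± 0.12 and 0.14 ± 0.22 (adjusted p = 0.157 and 0.671).

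Genes of the cell's basic machinery fell more often than they rose, where 14.4% of all genes fell and 15.2% rose. Their counts moved widely between the alternatives. Proteasome genes fell in 21 of 31 with a median of -0.37, but in 9 with the nearly identical libraries averaged or the 5 libraries alone, in 12 without NIC replicate 1, in 13 without NIC-Prmt1 replicate 1 and in 3 without NIC replicate 2. Psmd12 (-0.58 ± 0.10) and Psmc2 (-0.50 ± 0.09), subunits of its regulatory cap, were among the 3. Of 30 respiratory chain genes 13 fell, 2 with the nearly identical libraries averaged, 1 with the 5 libraries alone, 0 without NIC replicate 2, 6 without NIC replicate 1 and 8 without any one of NIC-Prmt1 replicate 1, NIC-Carm1 replicate 3 and the NIC-Prmt6 libraries. Of 38 ribosomal protein genes 10 fell, with a range over the alternatives from 0 (without NIC replicate 2) to 34 (without NIC-Prmt1 replicate 3). Mitosis genes had a median of -0.77 and 7 of 28 fell, a count of 0 with the nearly identical libraries averaged or the 5 libraries alone. The count was also 0 without either NIC library or NIC-Prmt1 replicate 3, 1 without NIC-Prmt1 replicate 1, 2 without either NIC-Prmt6 library, 3 without NIC-Carm1 replicate 2 or 3, and 27 without NIC-Prmt1 replicate 2. Mki67, the proliferation antigen, was at 2669 and 2726 in NIC and 807, 2542 and 1019 in NIC-Prmt1 (-1.08 ± 0.36), and Cdk1, the mitotic kinase, at 580.2 and 659 in NIC and 130.5, 520.0 and 289 in NIC-Prmt1 (adjusted p = 0.0562). NIC-Prmt1 replicate 2 was a little under NIC for both genes, and the other 2 NIC-Prmt1 libraries were far lower. Both NIC leave-outs ended the call of Mki67 (adjusted p = 0.151 and 0.173). DNA replication genes fell in 8 of 30 and rose in 1, with 4 and 2 falls without NIC replicates 1 and 2, 5 without NIC-Prmt1 replicate 1 and 17 without NIC-Prmt1 replicate 2. Cdkn1a, the p21 cell cycle inhibitor, fell from 9077 and 8651 to 5901, 5405 and 5598 (-0.65 ± 0.10).

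Splicing factors, coactivators and histone modifiers, listed for what PRMT1 is known to act on or with, are set against the 15.2% of all genes that rose and the 14.4% that fell. Of 30 SR and hnRNP splicing factors, many of them methylated on arginine, 3 rose and 7 fell (3 fell without NIC replicate 1 or either NIC-Prmt6 library, and 4 without NIC-Prmt1 replicate 3), with Srsf5 at 0.57 ± 0.10 and Hnrnpc at -0.58 ± 0.10. Of 25 coactivators and known substrates 2 rose and 3 fell (none fell with either NIC library left out, 1 without NIC-Prmt1 replicate 1 or 2 or either NIC-Prmt6 library, and 5 without NIC-Carm1 replicate 1). Of 35 histone lysine modifiers 2 rose and 2 fell. Hdac7, a deacetylase gene of endothelium among them, rose from 1346 and 1264 to 3397, 2264 and 2636 (1.06 ± 0.15). The protein methylation these enzymes carry out was not measured.

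Skin genes differed widely among the NIC-Prmt1 libraries. Of 21 tested keratinocyte and hair follicle genes 5 rose, none of them in every alternative. Dsc1, among the 5, passed the value filter only through NIC-Prmt1 libraries, so a rise was the only call open to it. Other members may have passed in the same way, so this count is not to be read against the share of all genes that rose. The count was 1 without NIC replicate 1, 0 without NIC replicate 2, 15 without NIC-Prmt1 replicate 2 and 3 without any one of NIC-Carm1 replicates 2 and 3 and the NIC-Prmt6 libraries. Krt10, a keratin of the outer skin layers, was at 50.1 and 37.7 in NIC and 8812, 39.4 and 1069 in NIC-Prmt1 (4.03 ± 1.61, adjusted p = 0.0844). NIC-Prmt1 replicate 1 held most of it, replicate 3 less, and replicate 2 was at the level of NIC. Of 13 skeletal muscle genes 3 rose (0 without NIC replicate 1, 8 without NIC-Prmt1 replicate 1 and 1 without NIC replicate 2 or NIC-Prmt1 replicate 2 or 3), and their sum was 51.3 and 58.6 CPM in NIC and 157, 135 and 159.9 in NIC-Prmt1. Without NIC-Prmt1 replicate 1, 1741 genes of all those tested were higher and 1710 lower.

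Set against the mean of the NIC-Carm1 and NIC-Prmt6 groups, NIC-Prmt1 had 379 higher genes (2.41%) and 203 lower genes (1.29%), fewer than against NIC. That count leans on the nearly identical libraries: with each such pair averaged 1 gene was higher and 1 lower, while 1794 genes had an unadjusted p under 0.05 in that fit. Leaving out NIC-Prmt6 replicate 1 gave 31 higher and 10 lower genes, and leaving out NIC-Prmt1 replicate 2 gave 713 and 718. The 2 comparisons share the NIC-Prmt1 libraries, so their values are only set side by side. By list, 13 of 14 basal genes were higher in this comparison. The count was 0 of 20 for blood endothelium, 0 of 27 for tissue-resident macrophages and 1 of 31 for collagens. Among lists that fell against NIC, 12 of 38 interferon genes were lower here. For cytosolic heat shock that was 0 of 17, for glycolysis 0 of 19 and for the proteasome 0 of 31. Of the 12 largest falls against NIC, Clec4e (-2.23, adjusted p = 0.00235), Il1rn (-1.29, 0.0122), Apol9a (-1.89, 0.0395) and Apol9b (-1.72, 0.0402) were lower here too. Il12b (-2.06), Cyp1a1 (-0.997), Scd1 (-1.03), A2m (-0.97), Slc6a14 (-0.79), Cdh17 (-0.65), Chac1 (-0.62) and Il10 (-0.49) did not pass. Chac1 values of 91.2, 51.0 and 53.3 in NIC-Carm1 and 79.7 and 92.0 in NIC-Prmt6 lay near those of NIC-Prmt1 (64.7, 37.3 and 44.4) and far under NIC.

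Of the 12 largest rises, Dsc1 (4.81) and Mt4 (4.82) also lay above the other transgenic groups on the log2(value + 1) scale. In NIC-Carm1 their values were 2.25, 1.64 and 4.85 and 0, 0 and 0.97, and in both NIC-Prmt6 libraries 0. Both passed the value filter only through NIC-Prmt1 libraries, so this difference is no separate test. The macrophage and mast cell genes did not pass there. Retnla differed by -0.67, Cd163 by -0.93, F13a1 by -0.73, Fcna by -0.91, Mmp9 by -0.996, Cd209d by -0.62, Mgl2 by -0.25, Mcpt4 by -0.33 and Cma1 by -0.32. Ctsr differed by 1.27 (adjusted p = 0.312). Retnla was at 409, 2610.4 and 2626 in NIC-Carm1 and 4502 and 4686 in NIC-Prmt6, above NIC in every library. Among the genes of largest change in level, Glul (1.52, adjusted p = 0.00897) and Fosb (0.88, 0.0226) were higher in NIC-Prmt1, and Gpx3 had 1.97 (adjusted p = 0.0542). These adjusted p values, too, take the nearly identical libraries as separate. Glul stood at 11367, 11576 and 11421 in NIC-Carm1 and 23387 and 24151 in NIC-Prmt6, all under the lowest NIC-Prmt1 library. Fos (0.49), Zfp36 (0.12), Egr1 (0.25), Thbs1 (-0.07), Csn3 (-0.11), Plet1 (-0.05), Hspa1b (0.41), Hsp90aa1 (0.05) and Aldoa (-0.17) did not pass.

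**Figure D5:**
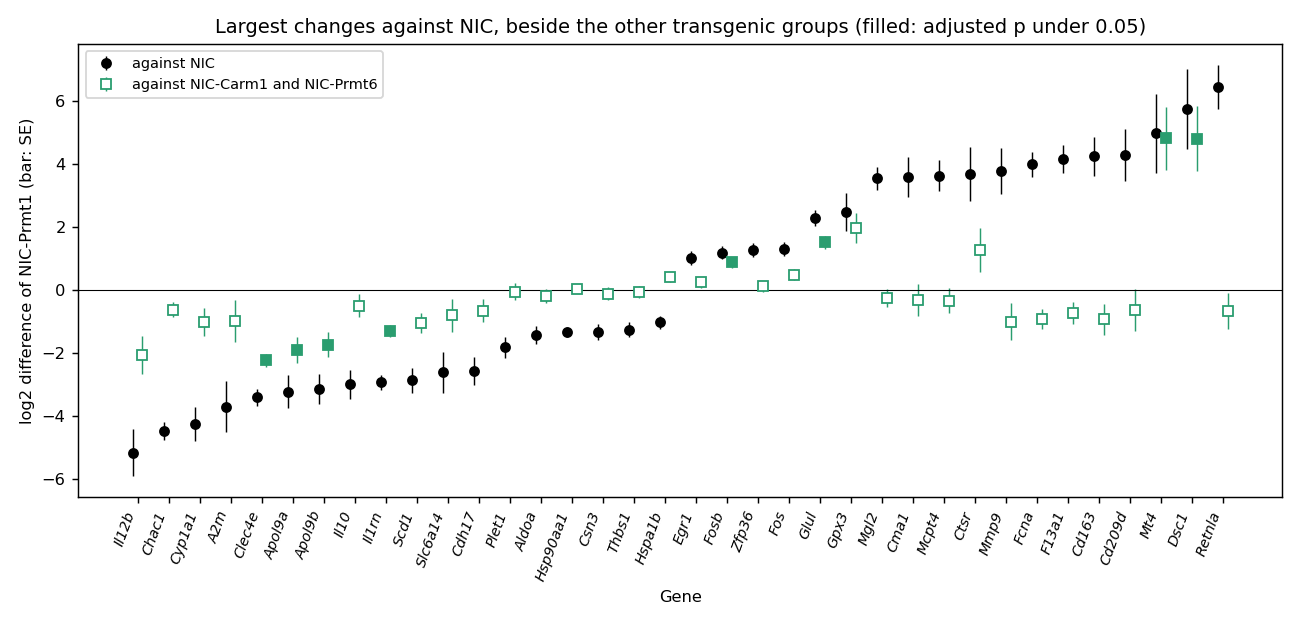
Log2 differences of NIC-Prmt1 for the 36 genes of largest change, against NIC (black circles) and against the mean of NIC-Carm1 and NIC-Prmt6 (green squares), with bars of 1 standard error and filled symbols at an adjusted p under 0.05. The macrophage genes at the right, such as Retnla at 6.46 against NIC and -0.67 against the other groups, have negative differences in the second comparison that did not pass.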

How the data were processed

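RNA of mammary epithelial cells was sequenced in 10 libraries of 4 genotypes. The deposited signal is a read count per gene divided by a size factor of its library. Per the submitters' processing notes, TopHat2 2.0.10, HTSeq 0.6.0, DESeq 1.18.0 and the mm10 build were used, with no role stated; they do not state the annotation, strandedness or filters. All values were whole multiples of the smallest one in their column (tolerance 0.01 reads), so reads were recovered for the count tests and for CPM.

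A gene was tested if 2 or more of the 10 libraries reached a value of 10, with limma 3.58.1 (R 4.3.3) on log2(value + 1), with 4 group means, a trended prior variance, 6 residual degrees of freedom and Benjamini-Hochberg adjustment at 0.05. NIC-Prmt1 was contrasted with NIC, and with the mean of NIC-Carm1 and NIC-Prmt6. The alternatives were edgeR 4.0.16 and DESeq2 1.42.0 on recovered reads, voom with quality weights, the 5 libraries alone, nearly identical libraries averaged, the replicate number as a block, other scalings, pseudocounts and filters, and each library left out. In simulated counts for this comparison (15428 genes), 82.8% of genes changed 2-fold and 97.9% changed 4-fold were recovered. There were 17 false calls among 194. The simulation drew every library independently, with the same dispersion (spread between libraries) for all genes and 196 changed genes. It held no nearly identical pairs and no uneven replicates, so its rates check the code and do not describe these data.

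Named genes were the 12 largest rises and falls among genes called in the first fit, with nearly identical libraries averaged and in the 5 libraries alone, with a mean value of at least 50, no overlap and no clone name, the 6 largest rises and falls in mean value under the same calls, the methyltransferases, and from each list the 4 called members of smallest adjusted p and any whose role is described. The comparison, the gene lists and these rules were chosen with earlier results of these data known. A single gene tested alone by exact permutation could not reach 0.05 with 3 libraries against 2 (smallest one-sided p 0.1). Of the genes in the table, 15667 matched 1 gene of GENCODE M21 by symbol.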

Additional observations from a re-analysis of the deposited data

How the results depend on the processing

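Against NIC, the counts of 2387 higher and 2258 lower genes became 1556 and 1219 with the 5 libraries alone and 1424 and 1177 with the nearly identical libraries averaged. DESeq2 (2673 and 2572), edgeR (2334 and 2204), voom (1988 and 2099), TMM scaling, other pseudocounts and other filters kept both counts within 1.5 times. Upper-quartile scaling called 2702 genes higher and 1863 lower, so that 59.2% of calls were higher where 51.4% were. Leaving out 1 library gave 1238 to 2955 higher and 1039 to 2687 lower genes, the lowest without NIC replicate 2.

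Against the other transgenic groups, the counts of 379 higher and 203 lower genes became 882 and 550 with DESeq2, 1193 and 880 with voom, and 1 and 1 with the nearly identical libraries averaged. Leaving out 1 library gave 31 to 713 higher and 10 to 718 lower genes. Upper-quartile scaling raised the share of higher calls from 65.1% to 74.5%.

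A replicate block gave 1852 higher and 1890 lower genes against NIC, and 188 and 92 against the other transgenic groups. Same-numbered libraries did not deviate together, with correlations of -0.13 to 0.10, so the numbers are taken as names only. No gene named here changed sign with a call in any alternative. Depth of 21589274 to 30260921 reads per library limits genes with few reads, and the 2 NIC libraries limit every comparison with NIC.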

Other observations

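Further gene lists are given beside the 15.2% of all genes that rose and the 14.4% that fell. Of 20 imprinted and long non-coding genes 6 rose and 2 fell, with 3 rises when either NIC library or NIC-Prmt1 replicate 3 was left out. Dlk1, a Notch-like protein gene of immature stromal cells, rose from 44.4 and 55.9 to 263, 254 and 336 (2.48 ± 0.22, adjusted p = 0.00028). The long non-coding RNAs Meg3 and Rian rose from 654 and 705 to 1850.2, 1433 and 1337 (1.17 ± 0.16) and from 194 and 241 to 616, 449.5 and 479.5 (1.24 ± 0.20). Mirg, another non-coding RNA, rose by 1.28, but not without NIC replicate 1 (adjusted p = 0.0856). Igf2 was at 0.24 ± 0.27 (adjusted p = 0.515). Dlk1 was also above the mean of the other transgenic groups (0.87, adjusted p = 0.0317, with their nearly identical libraries taken as separate). Its values were 74.3, 105 and 112 in NIC-Carm1 and 244 and 249 in NIC-Prmt6, so NIC-Prmt6 lay close to NIC-Prmt1.

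Of 15 glucocorticoid targets 6 fell and 4 rose (3 falls without NIC replicate 1 and 2 rises without NIC replicate 2). Fkbp5, a cochaperone of the glucocorticoid receptor, fell from 2029 and 2387 to 713, 819 and 766 (-1.52 ± 0.20), and Zbtb16, a transcription factor gene, from 1861 and 1282 to 447, 701 and 439 (-1.58 ± 0.29). Both were also lower than in the other transgenic groups (-0.86 and -1.29, adjusted p = 0.024 and 0.0193). Angptl4, an inhibitor of lipoprotein lipase, rose from 3577 and 4193 to 8466, 7134 and 10845 (1.17 ± 0.16), and exceeded those groups by 1.24 (adjusted p = 0.00253). Tsc22d3, another target of the receptor, was at -0.06 ± 0.33 (adjusted p = 0.901). Rdh10, which starts retinoic acid synthesis, fell from 2294 and 1321 to 492, 494 and 452 (-1.86 ± 0.19, adjusted p = 0.000411), all 3 NIC-Prmt1 values close together. Among neuronal adhesion genes, 5 of 14 rose (2 without NIC replicate 1, 3 without NIC replicate 2 or NIC-Prmt1 replicate 1, and 8 without NIC-Carm1 replicate 1). Nrxn2, a neurexin gene, rose from 48.2 and 50.7 to 219.6, 189.5 and 227 (2.08 ± 0.30) and stood 1.76 above the other transgenic groups (adjusted p = 0.0082). For Fkbp5, Zbtb16, Angptl4 and Nrxn2, the calls against those groups take their nearly identical libraries as separate.

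Of 20 complement genes 5 rose (3 without NIC replicate 1 and 2 without NIC replicate 2) and 1 fell. C1s1, a protease that starts the classical pathway, rose from 2294 and 2546 to 4944, 4039 and 4103 (0.85 ± 0.13), and Cfb, of the alternative pathway, fell from 2081 and 2412 to 1494, 1507 and 1251 (-0.67 ± 0.11). Of 19 clock genes 2 rose and 2 fell. Bhlhe41, a repressor of the clock, rose from 1560.1 and 1222 to 3504, 2730.3 and 3861 (1.27 ± 0.18), while Arntl and Dbp, whose levels run in opposite phases of the day, were at -0.65 ± 0.40 and 0.43 ± 0.47 (adjusted p = 0.243 and 0.515). Of 6 lymphatic markers 5 rose, 2 of them with either NIC library left out, and Prox1, the factor that defines lymphatic endothelium, had values of 356 and 182 in NIC and 318, 253 and 195 in NIC-Prmt1 (adjusted p = 0.957).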
